A study of Mus musculus with 4 samples.

Results

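The genes described here are 10 genes of fatty acid sensing, sterol sensing and lipid storage, chosen by symbol from the 54532 genes of the count tables, of which 22046 were protein-coding. They are the peroxisome proliferator-activated receptors Pparg and Ppard, the liver X receptors (LXR) Nr1h2 and Nr1h3, the LXR target genes Abca1, Abcg1 and Mylip, the lipid droplet gene Plin2, and the fatty acid binding protein genes Fabp4 and Fabp5. All 10 were found and all 10 passed the filter on low counts. RNA came from primary microglia, taken from male pups of the CD1 mouse strain, grown from mixed glia of the cortex in the presence of GM-CSF and isolated by removing the astrocyte layer with trypsin. The EGCG group received 1 µM epigallocatechin gallate, a flavan-3-ol of green tea, for 24 h, and the vehicle group received DMSO, with 2 libraries in each group. Both groups were kept in serum-free medium that contained IL-34, TGFβ2, GM-CSF and cholesterol, so every library comes from cells supplied with a sterol. Each EGCG library shared a biological replicate number and a count table with a vehicle library.

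Both receptor families act as pairs with a retinoid X receptor and sit on repeats of a short DNA motif. LXR is activated by oxysterols, which build up when a cell holds excess cholesterol, and it then raises the transcription of sterol export genes and of Mylip, whose product limits sterol uptake. PPARγ and PPARδ bind fatty acids and their derivatives, which fatty acid binding proteins carry through the cytosol. Surplus fatty acids and sterols are stored as esters in lipid droplets, whose surface PLIN2 coats. In microglia these pathways are known for handling the lipid of engulfed myelin and debris.

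For 2 of the genes the promoter is shown. Abca1 differed most between replicates, and Plin2 was lower with EGCG in both, as were Ppard and Nr1h2. Of the genes with a listed promoter, only Abca1 and Plin2 held a match, described below, that lies wholly before the start site. The 250 bases before the start site of each are printed 5′ to 3′ on the strand of the gene (RefSeq, GRCm38.p6, minus strand of chromosome 4), at chr4:53159896-53160145 for Abca1 and chr4:86670060-86670309 for Plin2. Capitals mark the closest match to a repeat of AGGTCA, with 4 bases between the copies in Abca1 and 1 base between them in Plin2.
Abca1: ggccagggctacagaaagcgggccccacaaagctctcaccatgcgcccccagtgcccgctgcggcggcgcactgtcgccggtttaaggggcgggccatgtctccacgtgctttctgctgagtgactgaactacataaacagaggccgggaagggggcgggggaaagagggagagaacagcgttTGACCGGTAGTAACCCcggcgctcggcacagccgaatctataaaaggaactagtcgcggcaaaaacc
Plin2: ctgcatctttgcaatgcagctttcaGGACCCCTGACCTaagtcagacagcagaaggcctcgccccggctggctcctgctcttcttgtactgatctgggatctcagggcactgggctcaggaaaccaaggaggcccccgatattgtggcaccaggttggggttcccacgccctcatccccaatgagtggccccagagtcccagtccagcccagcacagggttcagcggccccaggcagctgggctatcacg

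The motifs searched were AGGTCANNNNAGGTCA, the spacing that LXR pairs prefer, and AGGTCANAGGTCA, the spacing that PPAR pairs prefer, on both strands of windows from 250 bases before to 50 bases after each start. Up to 3 of the 12 fixed letters could differ, a tolerance set after the sequences were read. In Abca1 the match lay at -67 to -52 from the start on the opposite strand, where it reads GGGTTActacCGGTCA, with 3 differences. Matches this close to the LXR spacing were present in 21.9% of 32851 mouse promoters. In Plin2 the closest match to the PPAR spacing lay at -225 to -213 on the opposite strand and reads AGGTCAgGGGTCC. It had 2 differences, a closeness found in 3.86% of promoters. A further match in Plin2, not marked, lay at -161 to -149 on the opposite strand with 3 differences, a closeness found in 24.6% of promoters. Of the 10 promoters listed for 7 of the genes, only those of Abca1 and Plin2 and 1 promoter of Pparg held either repeat. The match in Pparg was to the LXR spacing, at -9 to 6 with 3 differences. The letters describe the windows and are not evidence of binding.

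Total counts were between 33752397 and 54909854 per library, the deepest being EGCG replicate 2, and 3 counts, used as the floor of detection, equal 0.0546 to 0.0889 CPM when scaled by total counts. All other CPM values are read counts scaled to the normalized size of each library. The cells carried all 12 microglia markers examined. The replicates differed far more than the treatments, with a chi-square per gene of 263.6 from vehicle to vehicle and 263.2 from EGCG to EGCG library, against 11.9 and 9.84 between EGCG and vehicle within replicates 1 and 2. Summed stromal markers (6 collagen, proteoglycan and mural cell genes) were at 422 CPM (vehicle) and 1.40 (EGCG) in replicate 1, and 160 and 176 in replicate 2. Summed markers of neurons (4 genes) were at 17.5 and 16.7 CPM in replicate 1 and at 0.79 and 1.14 in replicate 2, for vehicle and EGCG in turn. Summed markers of astrocytes (7 genes, Gjb6 at 0 in every library) reached at most 14.6 CPM, and those of the oligodendrocyte lineage (8 genes) between 113 and 151. Endothelial markers (5 genes, Cldn5 at 0 in every library) summed to 177 and 176 CPM in replicate 1 and 70.1 and 78.6 in replicate 2. Of 5 adipocyte markers, Adipoq, Lep and Cidec were at 0 in every library, and the sum stayed between 0.027 and 0.073 CPM. In RNA from a whole culture, fewer cells of a type and less RNA per cell cannot be told apart.

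The 10 genes spanned a wide range of levels, with the fatty acid carrier Fabp5 and the sterol exporter Abca1 at the top and the inducible receptors Pparg and Nr1h3 at the bottom. Compared per length (CPM per kb of the gene length in the files, mean of 4 libraries), Fabp5 was at 301 (range 243 to 376), above 99.2% of the genes tested. Abca1 followed at 164 (88.1 to 250.1), Plin2 at 103 (79.8 to 133) and Abcg1 at 89.2 (74.8 to 101). The ranges of these 4 genes overlapped from each to the next, and in Vehicle replicate 2 Abca1 stood above Fabp5. Mylip was at 42.3 CPM per kb (25.5 to 62.2) and Nr1h2 at 21.8 (20.1 to 23.0). Fabp4 at 11.6 (9.16 to 16.2) and Ppard at 6.48 (6.14 to 6.90) came next. Pparg at 1.94 CPM per kb (1.36 to 2.82) and Nr1h3 at 1.14 (1.03 to 1.27) were the lowest of the 10, the latter above 29.7% of genes tested. From Abcg1 downwards no range overlapped that of the next gene. This order depends on the lengths used. The length of Fabp4, 4489 bases, equals its whole span on the chromosome, and that of Fabp5, 3567 bases, covers most of its span. For Abca1 it is 10363 bases, a small part of the span. Levels per kb of Fabp4 and Fabp5 may thus be understated beside the others, and the rank of Fabp4 is uncertain.

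**Figure D1:**
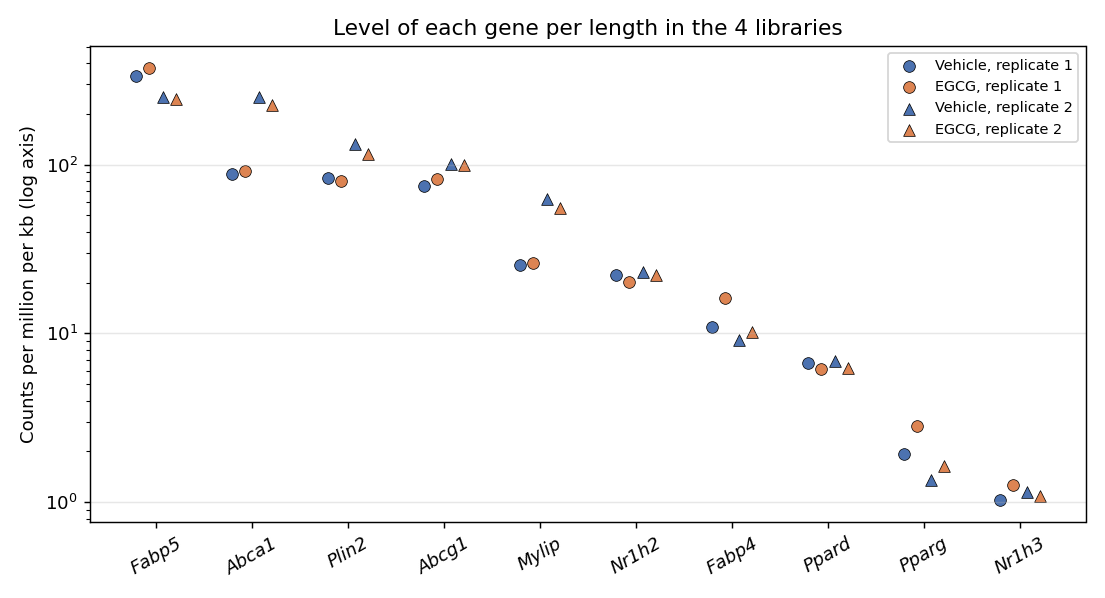
Level of each of the 10 genes in CPM per kb of gene length (log axis), 1 point per library, blue for vehicle, orange for EGCG, circles for replicate 1 and triangles for replicate 2. Abca1 and Mylip separate by replicate, Nr1h2 and Ppard hardly vary, and Pparg and Nr1h3 lie lowest, at means of 1.94 and 1.14.

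Within each pair of related genes, the same member was the more abundant in all 4 libraries. Nr1h2, which encodes LXRβ, exceeded Nr1h3, which encodes LXRα, by 15.9 to 21.4 times per kb. Ppard exceeded Pparg by 2.18 to 5.08 times per kb, the ratio being lowest in EGCG replicate 1 and highest in Vehicle replicate 2. Fabp5 exceeded Fabp4 by 23.2 to 30.6 times per kb, a ratio that depends on the lengths noted above. The exporters Abca1 and Abcg1 lay closer, at ratios of 1.18 and 1.11 per kb in replicate 1 and 2.49 and 2.29 in replicate 2, for vehicle and EGCG in turn. This last ratio followed the replicate and not the treatment.

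The comparison of EGCG with vehicle asked whether 24 h of the flavanol altered the transcripts of these pathways. In the quasi-likelihood F test of edgeR with treatment as the sole term, an unadjusted p under 0.05 was reached by 0 of the 10 genes and by 16 of 13811 genes overall (0.116%), and none of the 13811 genes (0.0%) had a Benjamini-Hochberg adjusted p under 0.1. The adjusted p of all 10 was 1.00. This fit keeps the difference between replicates in its error. A count of 0 of the 10 therefore does not show that EGCG left them unchanged. From the same libraries the study reported more genes under each of these thresholds. The median log2 fold change of the 10 genes was -0.02, beside 0.01 over all genes tested. Pparg and Fabp4 were higher with EGCG in both replicates, as were 29.9% of all genes. Ppard, Nr1h2 and Plin2 were lower in both, as were 20.6% of all genes. The other 5 differed in direction between the replicates. The smallest two-sided p that permuting 2 against 2 libraries allows is 0.333. Every p below therefore rests on the model and sets the difference between treatments against a spread estimated from these libraries. Without a block that spread includes the difference between replicates, and with the replicate block it does not.

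**Figure D2:**
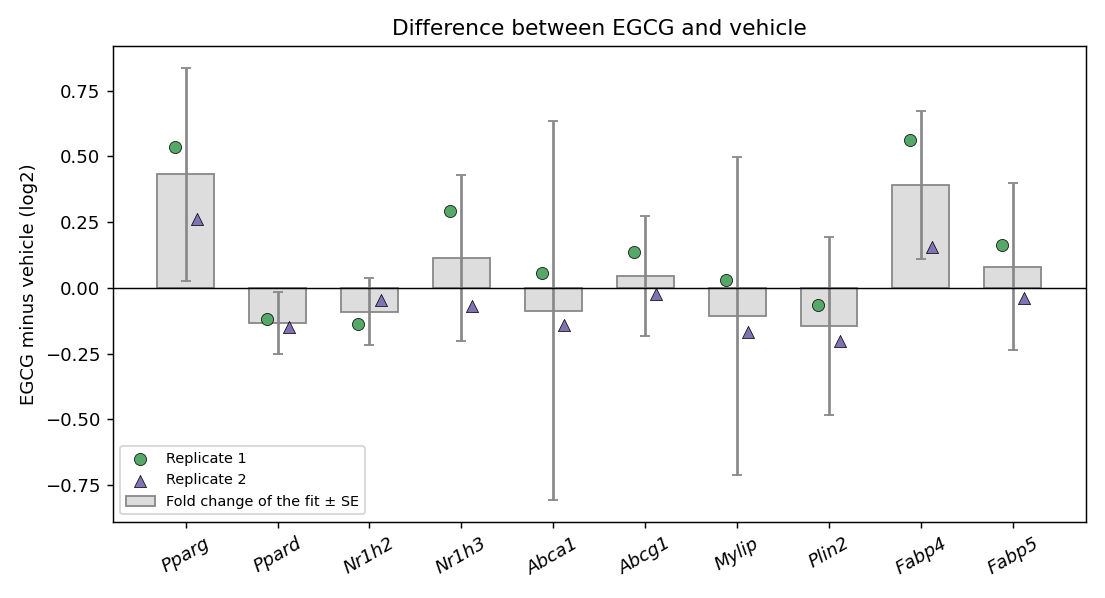
Difference between EGCG and vehicle for the 10 genes on the log2 CPM scale, with circles for replicate 1, triangles for replicate 2, and bars with standard errors for the log2 fold change of the edgeR fit without a block. Pparg and Fabp4 have both points above 0, and the standard errors of Abca1 (0.72) and Mylip (0.60) are the widest.

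Pparg (ENSMUSG00000000440, chromosome 6 of GRCm38, 115360951 to 115490399, plus strand) encodes PPARγ, the receptor that directs fat cell formation and lipid uptake in macrophages. It had 188 counts (vehicle) and 267 (EGCG) in replicate 1, and 147 and 266 in replicate 2, which corresponds to 5.73, 8.33, 4.01 and 4.82 CPM. Both EGCG libraries were above their own vehicle library, but EGCG replicate 2 was below Vehicle replicate 1, so the groups overlapped. The difference was 45.4% in replicate 1, where the 95% exact Poisson intervals of vehicle (4.94 to 6.61 CPM) and EGCG (7.36 to 9.39 CPM) did not meet. In replicate 2 it was 20.2%, and the intervals (3.39 to 4.71 and 4.26 to 5.44 CPM) overlapped. These intervals cover counting error only.

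Pparg had a log2 fold change of 0.43 ± 0.41 (SE, edgeR, unadjusted p = 0.348). With the replicate number as a block it was 0.40 with a standard error of 0.15 (edgeR, unadjusted p = 0.0388, adjusted p = 0.99), while DESeq2 with the block gave an unadjusted p of 0.227. Without EGCG replicate 1 the fold change of the fit without a block was -0.014. That fit set EGCG replicate 2 against both vehicle libraries, so the difference between replicates entered it. EGCG replicate 1 was also the library whose stromal markers were at 1.40 CPM, and the part of the stromal markers in the higher Pparg and Fabp4 was not tested. In replicate 2 the stromal sum was 160 CPM in vehicle and 176 in EGCG, and Pparg was higher by 0.26 on the log2 scale.

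Fabp4 (ENSMUSG00000062515, chromosome 3, 10204088 to 10208576, minus strand) encodes the fatty acid binding protein of adipocytes and macrophages and is a classical PPARγ target. Its counts were 1616 (vehicle) and 2332 (EGCG) in replicate 1, and 1508 and 2526 in replicate 2, or 49.2, 72.8, 41.1 and 45.8 CPM. It was higher with EGCG in both replicates, by 47.8% and 11.3%, and the groups overlapped because EGCG replicate 2 lay below Vehicle replicate 1. The mean was 45.2 ± 5.73 CPM in vehicle and 59.3 ± 19.1 in EGCG (SD, n = 2 libraries each). Fabp4 had a log2 fold change of 0.39 ± 0.28 (SE, edgeR, unadjusted p = 0.237). With the replicate block the unadjusted p was 0.0191 in edgeR (adjusted p = 0.99) and 0.00985 in DESeq2 (adjusted p = 1.00). Without EGCG replicate 1, the library low in stromal markers, the log2 fold change of the fit without a block was 0.02. That fit set EGCG replicate 2 against both vehicle libraries, so the difference between replicates entered it. Within replicate 2 the log2 difference between EGCG and vehicle was 0.15.

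Pparg and Fabp4 were thus the 2 genes of the 10 with an unadjusted p under 0.05 in edgeR with the replicate block, both higher, where 3.21% of all genes tested had such a p in either direction and 2.12% in the higher direction. DESeq2 with the block gave Fabp4 alone, where 1.11% of all genes had such a p. The call of Fabp4 was shared by both blocked fits and that of Pparg was not. The 5 adipocyte markers summed to between 0.027 and 0.073 CPM. The part of such cells in the higher Pparg and Fabp4 was not tested.

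Ppard (ENSMUSG00000002250, chromosome 17, 28232700 to 28301474, plus strand) encodes PPARδ, a receptor of broad expression that controls fatty acid oxidation. It was at 50.1 CPM (vehicle) and 46.1 (EGCG) in replicate 1, and 51.9 and 46.8 in replicate 2. Both EGCG libraries lay below both vehicle libraries, which no other gene of the 10 showed and which held for 5.51% of all genes, while the reverse order held for 6.39% of all genes and for none of the 10. EGCG differed from vehicle by -7.88% (replicate 1) and -9.76% (replicate 2), with a log2 fold change of -0.13 ± 0.12 (SE, edgeR, unadjusted p = 0.324). Under the replicate block its unadjusted p came to 0.0675 (edgeR) and 0.259 (DESeq2). Between replicates Ppard differed by 0.05 on the log2 scale in vehicle and 0.02 in EGCG, the closest agreement of the 10 genes in EGCG and in vehicle.

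Nr1h2 (ENSMUSG00000060601, chromosome 7, 44549616 to 44553951, minus strand) encodes LXRβ, the LXR form found in most tissues. Its level was 74.0 CPM (vehicle) and 67.3 (EGCG) in replicate 1, and 77.0 and 74.5 in replicate 2. EGCG replicate 2 lay just above Vehicle replicate 1, so the groups overlapped. The log2 fold change was -0.09 with a standard error of 0.13 (edgeR, unadjusted p = 0.518). Nr1h3 (ENSMUSG00000002108, chromosome 2, 91184061 to 91202834, minus strand) encodes LXRα, which is itself inducible in macrophages. It had 85, 102, 106 and 152 counts in Vehicle replicate 1, EGCG replicate 1, Vehicle replicate 2 and EGCG replicate 2, or 2.59, 3.18, 2.89 and 2.76 CPM. Its log2 difference was 0.29 for replicate 1 and -0.07 for replicate 2, with a log2 fold change of 0.11 ± 0.32 (SE, edgeR, unadjusted p = 0.736).

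Abca1 (ENSMUSG00000015243, chromosome 4, 53030787 to 53159895, minus strand) encodes the transporter that loads cholesterol and phospholipid onto lipid-poor apolipoproteins, and it is the gene whose promoter carries the repeat marked in capitals at the LXR spacing. It had 29958 counts (vehicle) and 30446 (EGCG) in replicate 1, and 95002 and 129689 in replicate 2, or 913, 950, 2592 and 2351 CPM. The libraries fell into their replicates and not into their treatments. Replicate 2 was 2.84 times replicate 1 in vehicle and 2.47 times in EGCG, whereas EGCG differed from vehicle by 4.07% in replicate 1 and by -9.30% in replicate 2. The mean was 1752 ± 1187 CPM in vehicle and 1650.4 ± 990.3 in EGCG (SD, n = 2 libraries each). Its log2 fold change was -0.09 with a standard error of 0.72 (edgeR, unadjusted p = 0.910), and it was 0.84 without Vehicle replicate 2 and 0.42 without EGCG replicate 1. It was -0.91 without EGCG replicate 2. The fits with a library left out had no block, so the difference between replicates entered them. Their direction depended on which libraries were kept. With the replicate block the log2 fold change was -0.04 ± 0.08 in edgeR and -0.05 ± 0.07 in DESeq2 (SE).

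Mylip (ENSMUSG00000038175, chromosome 13, 45389742 to 45412022, plus strand) encodes the ubiquitin ligase IDOL, which limits sterol uptake. It had the same pattern, at 82.4 CPM (vehicle) and 84.2 (EGCG) in replicate 1, and 201 and 179 in replicate 2. Replicate 2 was 2.44 times replicate 1 in vehicle and 2.13 times in EGCG. The log2 difference between EGCG and vehicle was 0.03 in replicate 1, which was -0.03 when libraries were scaled by total counts, and -0.17 in replicate 2. The log2 fold change was -0.11 with a standard error of 0.60 (edgeR, unadjusted p = 0.868). Abcg1 (ENSMUSG00000024030, chromosome 17, 31057698 to 31115777, plus strand) encodes the exporter that passes cholesterol to mature lipoprotein particles. It was at 304 CPM (vehicle) and 335 (EGCG) in replicate 1, and 409 and 402 in replicate 2. Its replicates differed by only 1.35 times in vehicle and 1.20 times in EGCG, and its log2 fold change was 0.05 with a standard error of 0.23 (edgeR, unadjusted p = 0.849).

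Plin2 (ENSMUSG00000028494, chromosome 4, 86648386 to 86670060, minus strand) encodes the coat protein of lipid droplets in cells other than adipocytes, and its promoter carries the repeat at the PPAR spacing shown above. It was at 293 CPM (vehicle) and 280.2 (EGCG) in replicate 1, and 468 and 408 in replicate 2. EGCG was below vehicle in both replicates, with differences of -4.37% and -12.96%, but both libraries of replicate 2 lay above both of replicate 1. The log2 fold change was -0.15 with a standard error of 0.34 (edgeR, unadjusted p = 0.688). With the replicate block the unadjusted p was 0.0682 in edgeR and 0.0596 in DESeq2. Pparg and Plin2 therefore stood on opposite sides of 0 in both replicates.

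Fabp5 (ENSMUSG00000027533, chromosome 3, 10012548 to 10016607, plus strand) encodes the epidermal type of fatty acid binding protein, which many macrophages express. It had 39254 counts (vehicle) and 42949 (EGCG) in replicate 1, and 32670 and 47837 in replicate 2, or 1196, 1340.4, 891 and 867 CPM. Its log2 difference was 0.16 for replicate 1 and -0.04 for replicate 2, with a log2 fold change of 0.08 ± 0.32 (SE, edgeR, unadjusted p = 0.813). Its level is uncertain because 5 processed pseudogenes are near-identical to it. The counts assigned to them came to at most 7.02% of the Fabp5 count, which sets no limit on reads that matched several genes and may not have been counted. Adding them left replicate 1 at 1203 and 1349 CPM for vehicle and EGCG, and replicate 2 at 945 and 928. Fabp4 and Fabp5 lie close together on chromosome 3, and both were lower in replicate 2 than in replicate 1 in both conditions.

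In Abca1, Abcg1, Mylip, Plin2 and Fabp5 the replicates differed by more, in either condition, than EGCG and vehicle did in either replicate. This difference is given as a description without a test, since each condition has 1 library per replicate. Abca1 and Mylip exceeded replicate 1 by over 1 log2 unit in replicate 2 of both conditions (1.51 and 1.31 for Abca1, 1.29 and 1.09 for Mylip, vehicle and EGCG in turn), as did 4.31% of all genes. Plin2 was higher by 0.68 and 0.54, and Abcg1 by 0.43 and 0.27. In all, 6 of the 10 were higher in replicate 2 in both conditions, beside 42.2% of all genes. Pparg was lower by differences of -0.51 and -0.78, Fabp5 by -0.42 and -0.63, and Fabp4 by -0.26 and -0.67. Abca1, Abcg1, Mylip and Plin2 thus stood higher in the replicate in which Pparg, Fabp4 and Fabp5 stood lower. The replicates were biological replicates by label and were deposited in separate tables, so culture and processing cannot be told apart. Summed neuronal, endothelial, oligodendrocyte and astrocyte markers were lower in replicate 2 in both conditions. Summed stromal markers were lower in replicate 2 in vehicle and higher in EGCG. Microglia markers summed to 4565 and 4926 CPM in replicate 1 and 5875 and 5978 in replicate 2, but they moved both ways, with 4 of the 12 higher by over 1 log2 unit in replicate 2 of both conditions and 3 lower by as much. Replicate 2 was 7.75 (vehicle) and 6.31 (EGCG) times replicate 1 for Fcrls and 0.157 and 0.167 times for Olfml3, the markers with the widest gaps. The part of these markers in the differences of the 10 genes was not tested. Together the 10 genes took 0.289% and 0.298% of all counts in replicate 1 and 0.479% and 0.440% in replicate 2.

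**Figure D3:**
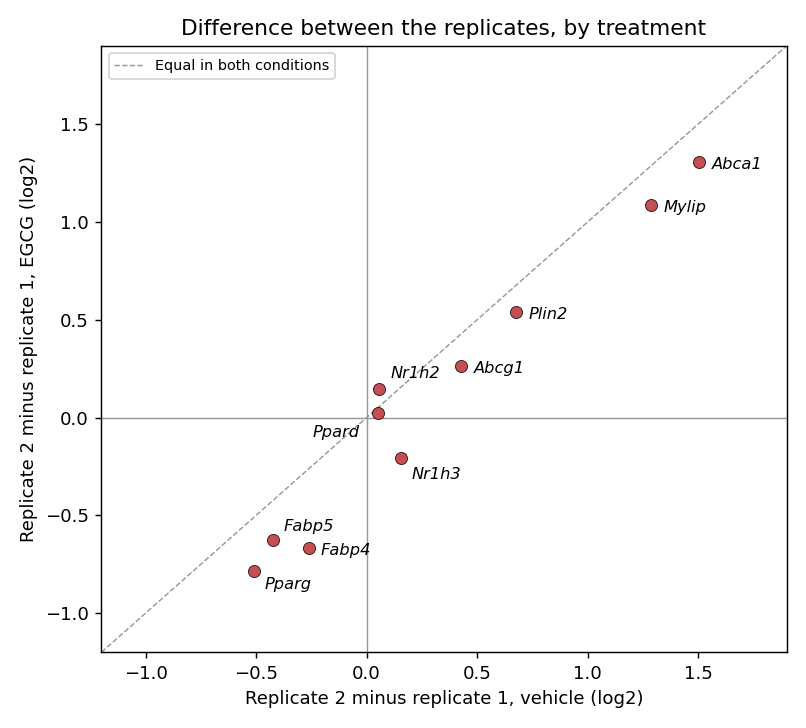
Difference between replicate 2 and replicate 1 on the log2 CPM scale in vehicle (horizontal axis) and in EGCG (vertical axis) for the 10 genes, with a dashed line where both are equal. Abca1 (1.51 and 1.31) and Mylip (1.29 and 1.09) lie at the upper right, Pparg (-0.51 and -0.78) at the lower left, and Ppard and Nr1h2 near 0.

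Around the 10 genes, 5 lists of 91 further pathway genes were examined, of which 74 were tested. None had an unadjusted p under 0.05 in edgeR without a block, and the smallest was 0.161, for G0s2, an inhibitor of droplet lipolysis, which had 2, 2 and 1 counts in Vehicle replicate 1, EGCG replicate 1 and Vehicle replicate 2 and 18 in EGCG replicate 2. Of the 74 genes, 27.0% were higher with EGCG in both replicates and 18.9% lower in both, beside 29.9% and 20.6% of all genes tested. With the replicate block, 9 genes (12.2%) had an unadjusted p under 0.05 in edgeR and 5 (6.76%) in DESeq2, beside 3.21% and 1.11% of all genes tested. Of these only Cd36 and Mgll had an adjusted p under 0.1, of 0.0041 and 0.0251 in DESeq2, while the lowest adjusted p among the 9 in edgeR was 0.66. The study had already reported both genes as raised by EGCG in these same libraries, and the lists were chosen with earlier results known. The shares of the lists are therefore no independent evidence. The genes with such a p are named here after their values were seen.

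The list of lipid droplet synthesis and breakdown held 25 genes, of which 20 were tested. Of these, 10 were higher in both replicates, 3 lower in both and 7 mixed. Over all genes tested, 29.9% were higher in both and 20.6% lower in both. The median log2 fold change was 0.08, beside 0.01 over all genes tested. The median log2 difference was 0.13 in replicate 1, where the stromal markers were at 422 CPM in vehicle and 1.40 in EGCG. It was 0.01 in replicate 2, where they were at 160 and 176. Over all genes tested these medians were 0.03 and 0.0018. The part of the stromal markers in the values of this list was not tested. With the block, 4 of the list had an unadjusted p under 0.05 in edgeR, all higher, as did 2.12% of all genes tested. They were Mgll and Abhd5, a lipase and a lipase activator of neutral lipid breakdown, Lipa, the lysosomal acid lipase, and Acsl1, which activates fatty acids by joining them to coenzyme A. DESeq2 with the block gave Mgll, Lipa and Acsl1. Acsl1 was at 126 and 157 CPM in replicate 1 and 71.9 and 87.5 in replicate 2, for vehicle and EGCG in turn, with a blocked unadjusted p of 0.0016 from edgeR (adjusted p = 0.99) and of 0.0019 from DESeq2. The most abundant genes of the list per kb were Lipa, Nceh1 and Soat1, which break down and form cholesterol esters. Lipa was at 1164 and 1380 CPM in replicate 1 and 806 and 889 in replicate 2, a log2 difference of 0.25 and 0.14. Soat1 was at 542 and 598 CPM in replicate 1 and 498 and 517 in replicate 2, and Nceh1 at 302 and 348 in replicate 1 and 409 and 400 in replicate 2. The droplet genes Plin4, Cidea and Cidec had no count in any library.

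The list of PPAR partners and targets held 20 genes, of which 16 were tested. Of these, 4 were higher in both replicates and 4 lower in both, beside 29.9% and 20.6% of all genes tested. The median log2 fold change was 0.00. With the block, Cd36, which encodes a fatty acid translocase and is a PPARγ target in macrophages, was higher in both edgeR and DESeq2. Angptl4, a secreted inhibitor of lipoprotein lipase and a PPAR target, was lower in edgeR with the block (unadjusted p = 0.0059). So was Cpt1a, which brings fatty acids into mitochondria (edgeR with the block, unadjusted p = 0.0412). Angptl4 was at 2.26 and 1.31 CPM in replicate 1 and 7.86 and 4.75 in replicate 2, so Angptl4 and Cd36 lay on opposite sides of 0 in both replicates. Among the most abundant genes of the list per kb were Ucp2 (792, 770.1, 798 and 789 CPM in Vehicle replicate 1, EGCG replicate 1, Vehicle replicate 2 and EGCG replicate 2) and Cd36 (362, 450, 164 and 227). Ppara had no count in any library.

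The list of LXR partners and targets held 20 genes, of which 19 were tested. Of these, 2 were higher in both replicates and 5 lower in both, beside 29.9% and 20.6% of all genes tested. The other 12 were mixed, and the median log2 fold change was -0.05. With the block Rxrb, a heterodimer partner, was lower in edgeR (unadjusted p = 0.0488) and Lpl, the lipoprotein lipase, was higher in DESeq2 (unadjusted p = 0.0064). The most abundant genes of the list per kb were Apoe, Lpl and Apoc1. Apoe, the main apolipoprotein of the brain, was at 12410 CPM (vehicle) and 14278 (EGCG) in replicate 1, and 20867 and 18765 in replicate 2. Like Abca1, it was higher with EGCG in replicate 1 and lower in replicate 2, and higher in replicate 2 throughout. Lpl was at 3731, 4252, 3503 and 3902 CPM, both EGCG libraries being above both vehicle libraries. Apoc1 was at 69.7, 83.8, 125 and 90.5 CPM.

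The list of sterol transport and oxysterol enzymes held 18 genes, of which 17 were tested. Of these, 3 were higher in both replicates and 2 lower in both, beside 29.9% and 20.6% of all genes tested. The list had a median log2 fold change of 0.00 and no gene at an unadjusted p under 0.05 in either blocked fit. Its most abundant genes per kb were Npc2 (2296, 2435, 1598 and 1538 CPM in the same order of libraries), which hands cholesterol out of the lysosome, Scarb2 (211, 229, 328 and 315) and Stard3 (75.4, 78.5, 84.3 and 81.6). Of the 8 other fatty acid binding protein genes, only Fabp3 and Fabp7 were tested. Fabp3, the heart type, was at 51.5 and 62.6 CPM in replicate 1 and 22.6 and 24.7 in replicate 2 and was higher in edgeR with the block (unadjusted p = 0.0257). Fabp7, the brain type of glial precursors, was at 25.1 and 24.5 CPM in replicate 1 and 2.16 and 3.21 in replicate 2. Fabp1 and Fabp12 had at most 3 counts in any library, and Fabp2, Fabp6, Fabp9 and Pmp2 had none.

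**Figure D4:**
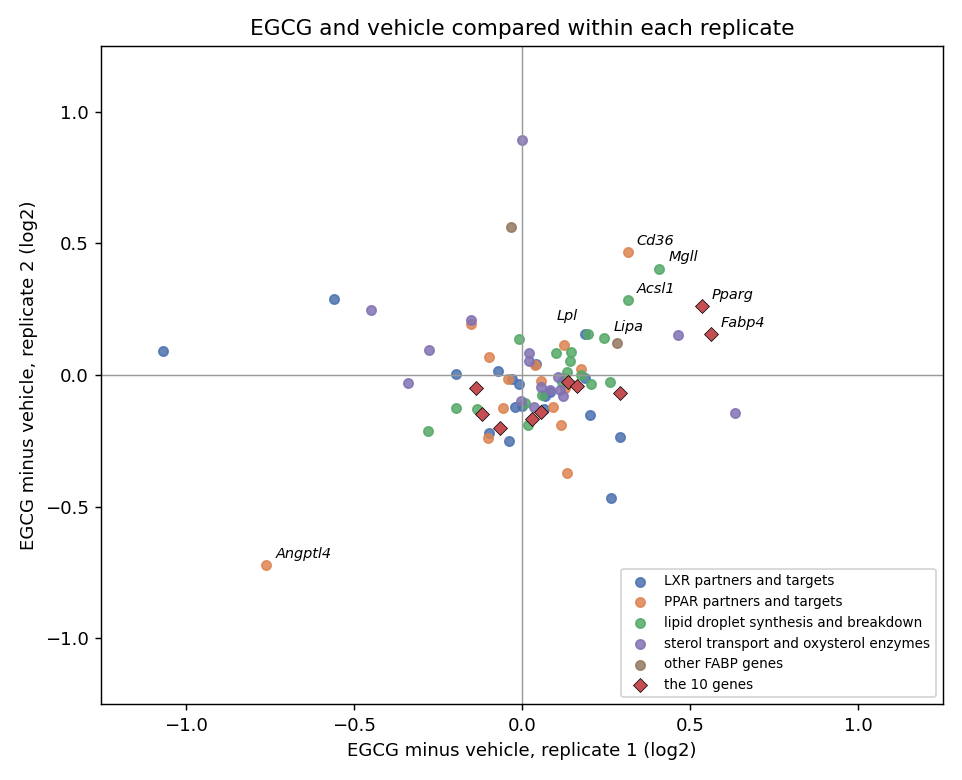
Log2 difference between EGCG and vehicle in replicate 1 (horizontal axis) and in replicate 2 (vertical axis) for 72 of the 74 pathway genes tested (circles, coloured by list) and for the 10 genes (diamonds), with 2 genes of few counts, G0s2 and Vldlr, outside the axes. Pparg and Fabp4 lie at the upper right beside Cd36, Mgll and Acsl1, and Angptl4 lies at the lower left.

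The genes whose pattern over the 4 libraries was most like that of 3 of the genes were found among 11215 genes with a mean of at least 1 CPM, by Euclidean distance between log2 CPM values centred over the libraries. For Abca1 they were Cebpd (distance 0.0297), Serp1 (0.0474) and Sorl1 (0.0708). Cebpd was at 25.5 and 26.5 CPM in replicate 1 and at 72.6 and 67.3 in replicate 2. For Plin2 they were Tnrc18 (0.0170), Ppp1r13b (0.0250) and Numa1 (0.0369). For Pparg they were AC154187.2 (0.0655), Spdl1 (0.0707) and Gm5148 (0.0943), with Spdl1 at 6.37, 8.71, 4.26 and 5.06 CPM in Vehicle replicate 1, EGCG replicate 1, Vehicle replicate 2 and EGCG replicate 2. With 4 libraries, likeness of this kind says only that these genes rank and space the libraries alike.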

How the data were processed

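Poly-A RNA of 4 libraries, 2 EGCG and 2 vehicle, was analysed from the raw read counts per gene that the authors deposited, whole and not normalized, in 1 table per replicate. Per the study's methods, filtered reads had been mapped to GRCm38.p6 by HISAT2. The counting program, the annotation and the treatment of reads with several matches are not given in the sources used here, which bears on Fabp5. Tables were joined on the Ensembl identifier, and 697 and 329 separately assembled loci were left out.

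Counts of 13811 protein-coding genes with at least 10 counts over all libraries were normalized by TMM and tested in R 4.3.3 with edgeR 4.0.16 (quasi-likelihood F test, two-sided, treatment only). Standard errors given for edgeR were derived, as the absolute log2 fold change divided by the square root of the F statistic. DESeq2 1.42.0 was an alternative. CPM used TMM library sizes, and log2 values a prior count of 2. Protein-coding genes took 98.0% to 98.1% of counts. Same-numbered libraries share a count table per the study's sample sheet, and the vehicle and EGCG differences between replicates correlated across genes (r = 0.64), so the number was taken as a pairing. Genes named are the 10, the 3 most abundant per kb of each list and the 3 most alike in pattern. Others were chosen after their values were seen. Some genes that meet the rule are not reported here. Members and lists were chosen with earlier results of these data known. Copies were found with BLAST 2.17.0 (90% identity over 200 nucleotides). Alternatives covered test, normalization, filters, gene classes, dispersion, block and each library left out.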

Additional observations from a re-analysis of the deposited data

How the results depend on the processing

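The replicate block changed the calls most. The number of genes with an unadjusted p under 0.05 was 16 in edgeR and 24 in DESeq2, against 444 and 153 with the replicate block. For the 10 genes it was 0 in both tools, and 2 and 1 with the replicate block, and for the pathway lists it was 0 in both, and 9 and 5 with the block. The block changed no call of the 10 genes other than those of Pparg (log2 fold change 0.40 in edgeR) and Fabp4 (0.36 in edgeR and 0.35 in DESeq2). Without the block, filterByExpr gave 6 genes, genes of all biotypes 35 and the newer edgeR dispersion method 38, and each library left out in turn gave 8 to 134. None of these brought a call among the 10 genes or the pathway lists. With a library left out, the lone sample of its group is assumed to vary like the other group. The log2 fold change then ranged from -0.014 (without EGCG replicate 1) to 0.74 for Pparg, from -0.91 to 0.84 for Abca1, from -0.15 to 0.26 for Abcg1, from -0.78 to 0.67 for Mylip, from -0.47 to 0.22 for Plin2 and from -0.27 to 0.33 for Fabp5. Without EGCG replicate 1 it was 0.42 for Abca1, 0.34 for Mylip, 0.10 for Plin2 and -0.27 for Fabp5. Without Vehicle replicate 2 it was 0.84, 0.67, 0.22 and -0.14. Abcg1 was at -0.15 without Vehicle replicate 1 and -0.12 without EGCG replicate 2. Fabp4 (0.02 to 0.66), Nr1h3 (0.01 to 0.18), Nr1h2 (-0.20 to -0.02) and Ppard (-0.17 to -0.12) kept their direction. Without division by gene length, 6 of the 10 genes kept their rank. The fits with a library left out had no block, so the difference between replicates entered their fold changes. The part of that difference in each shift, and the cause of the other shifts, was not tested.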

Other observations

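The processed pseudogene Gm6166, named after its values were seen, is 98.3% identical to Fabp5 over 409 nucleotides and went the other way between replicates. It had 195 counts (vehicle) and 230 (EGCG) in replicate 1, and 1754 and 3045 in replicate 2, so replicate 2 was 8.05 times replicate 1 in vehicle and 7.69 times in EGCG. For Fabp5 the same ratios were 0.745 and 0.647. A further copy, Gm14328, had 37, 53, 217 and 315 counts. Whether these reads come from the copies, from Fabp5 or from a difference in how the tables were counted was not tested.

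A pair of further genes of sterol handling, also named after their values were seen, differed between replicates by more than Abca1. Pltp, which moves phospholipid between lipoproteins, was at 39.8 and 48.7 CPM in replicate 1 and 344 and 292 in replicate 2, for vehicle and EGCG in turn. Cyp27a1, which makes an oxysterol that activates LXR, was at 8.53 and 13.3 CPM in replicate 1 and 63.1 and 57.1 in replicate 2. These are values of 1 library each and carry no test.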
